A study of Gallus gallus with 21 samples.

Results

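The genes described are 10 protein chaperones and their partners: the cytosolic HSP90AA1, HSP90AB1, HSPA8, HSPA2, HSPH1, DNAJA1 and BAG3, the endoplasmic reticulum proteins HSPA5 and HSP90B1, and the mitochondrial HSPD1. They were taken by name from the gene column of the deposited expression tables, and 9 of the 10 have a row in both tables, out of 23760 distinct gene names in all. HSPA2, an Hsp70, has no row under that name in either table. It was not searched for under another name and is not analysed here.

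RNA was sequenced in bulk from adult contour feather follicles of white leghorn chickens, all male, untreated and at an age of 1 year. Experiment 1 (12 libraries) took apart follicles in the early growth phase, with 3 libraries for each tissue. These were the dermal papilla, a mesenchymal cluster at the follicle base, the dermal sheath around it, and the peripheral and the central pulp, the mesenchyme that fills the growing feather. Experiment 2 (9 libraries) followed the feather cycle, with 2 libraries each for early growth, late growth and near resting pulp, and 3 for resting apical dermal papilla. All groups share strain, sex and age, and the resting group differs from the other 3 of its experiment in tissue as well as in stage.

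Hsp70 proteins bind unfolded stretches of other proteins in cycles of ATP binding and hydrolysis. J-proteins such as DNAJA1 start the hydrolysis, and nucleotide exchange factors such as HSPH1 and BAG3 release the client, which may pass to an Hsp90. HSPA5 (BiP) and HSP90B1 (GRP94) are the Hsp70 and Hsp90 of the endoplasmic reticulum, where secreted proteins such as collagens fold, and are induced by the unfolded protein response, while many cytosolic chaperones are induced by heat-shock factors.

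Values are TPM, a share of all transcripts that is scaled by transcript length and by the library total, and the sequencing depth behind them is unknown. Libraries of experiment 1 had 12569 to 13142 genes at 1 TPM or more, and those of experiment 2 had 12927 to 13451. Marker genes of mesenchyme such as COL1A2 and VIM were present in all groups, with a summed level of 23591 to 30484 TPM in experiment 1 and 15749 to 40261 TPM in experiment 2. Tests were moderated linear models (limma) on log2(TPM + 1) within each table, adjusted over all genes tested and called at an adjusted p under 0.05, and fold changes on this scale understate the change of low genes. Each model pools the spread over the 4 groups of its experiment, so an SE also reflects libraries outside the pair compared. Leaving out a pulp library of experiment 2 leaves its group without a replicate, and such fits rest on the spread of the other groups. Whether replicates are separate birds is not stated, so the p-values cover the spread among these libraries alone, and that spread may be technical.

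By a test over the 4 groups of each experiment, all 9 chaperone genes were called as differing in experiment 1, where 76.3% of all genes tested were called, and all 9 in experiment 2, where 85% were. The shares over all genes are so high that these counts say little about the chaperones, and the size and direction of the differences are given instead. The highest group mean exceeded the lowest by 1.41-fold (HSP90AA1) to 4.43-fold (HSPH1) across the follicle parts. Over the 4 groups of experiment 2 it did so by 1.86-fold (HSPD1) to 15.6-fold (BAG3).

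In late growth pulp HSP90AA1, HSPA8, BAG3, DNAJA1 and HSPH1 of the cytosol stood far above their level in early growth pulp, while the cytosolic HSP90AB1 stood below it. The first 5 genes were lower in these early growth libraries than in every early growth pulp library of experiment 1, and HSP90AB1 was higher. HSPA8, for example, was at 562 to 905 TPM there, in values normalized separately. The fold changes below therefore depend on the 2 early growth libraries of experiment 2. Of the 9 genes, 7 rose and 1 fell, against 22.4% and 30.8% of all genes tested, and their median log2 fold change was 1.97 against -0.11 for all genes. HSP90AA1, the Hsp90 that is stress-inducible in mammals, was at 2829 and 2957 TPM in late growth pulp and at 366 and 326 TPM in early growth pulp. It ranked 22nd to 26th of all genes by level in the late growth libraries and 356th to 423rd in the early growth libraries. The log2 fold change was 3.06 ± 0.13 (SE, adjusted p = 2e-06), or 8.36-fold between the means. HSPA8, the constitutive cytosolic Hsp70, was at 2104 and 2164 TPM in late growth and at 198 and 265 TPM in early growth pulp. Its log2 fold change was 3.22 ± 0.15 (SE, adjusted p = 3.3e-06), or 9.23-fold. In both genes the 2 groups were far apart. The replicates were close together apart from HSPA8 in early growth pulp, at 198 and 265 TPM. In bulk tissue, fewer cells of a type and less RNA per cell cannot be told apart, here and in all values below.

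Of the partners of Hsp70, BAG3, DNAJA1 and HSPH1 followed the same direction in late growth pulp. BAG3, a nucleotide exchange factor that links Hsp70 to autophagy, had 659 and 688 TPM in late growth pulp, against 39.3 and 46.9 TPM in early growth pulp. Its log2 fold change was 3.94 ± 0.15 (SE, adjusted p = 1.2e-06), or 15.6-fold, and 123 of 14915 genes tested had a larger one. DNAJA1, the J-protein, had 384 and 404 TPM in late growth, against 74.7 and 84.2 TPM in early growth pulp, a log2 fold change of 2.30 ± 0.13 (SE, adjusted p = 6.3e-06). HSPH1, the Hsp110 exchange factor, had 157 and 159 TPM in late growth pulp, against 38.5 and 40.7 TPM in early growth pulp. Its log2 fold change was 1.97 ± 0.30 (SE, adjusted p = 9.3e-04). For none of these 3 genes did the libraries of the 2 stages overlap. The share of all genes tested without overlap was not counted, so this may not be particular to them. The cytosolic genes other than HSPA2 had a summed level of 6209 to 6444 TPM in late growth and 870 to 923 TPM in early growth pulp.

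**Figure D1:**
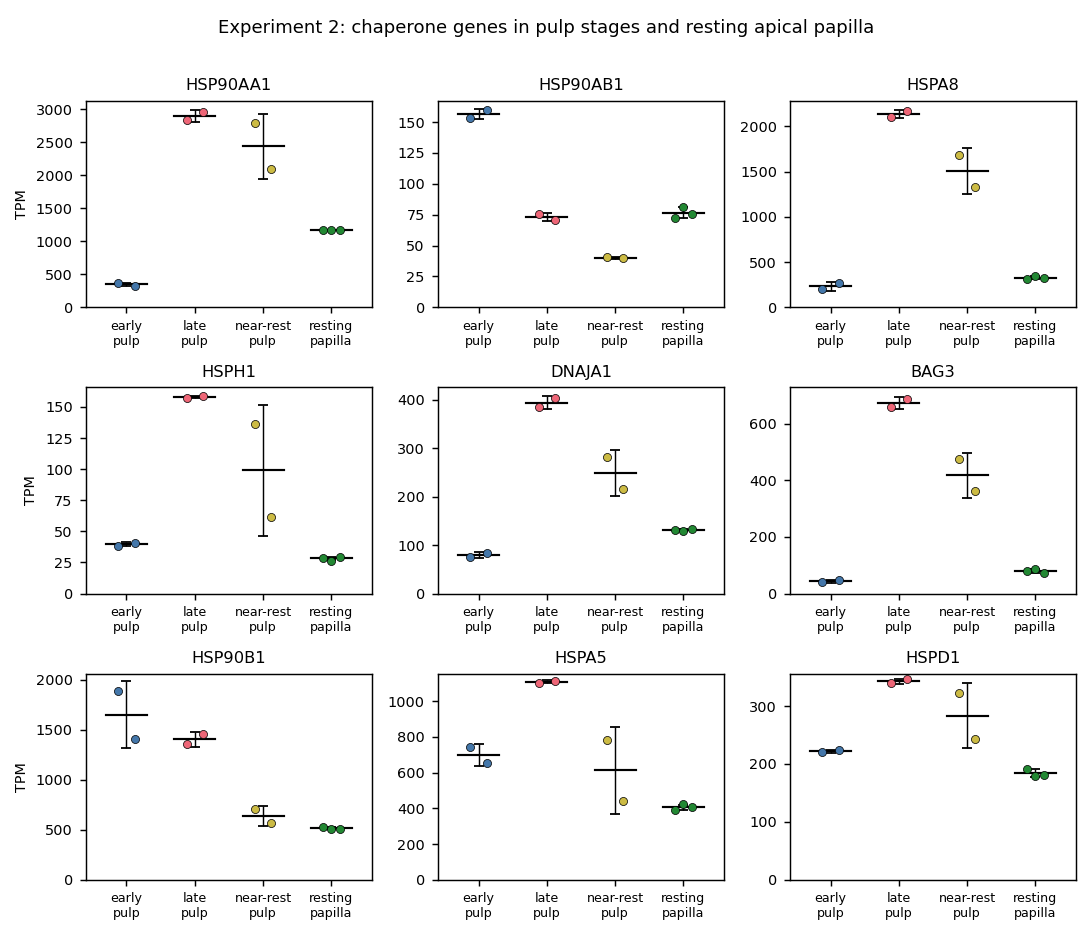
TPM of the 9 chaperone genes in each library of experiment 2, with stages from left to right (early growth, late growth and near resting pulp, then resting apical dermal papilla). Points are libraries, and lines with bars are means with their SD. HSP90AA1, HSPA8, DNAJA1, HSPH1, BAG3, HSPA5 and HSPD1 have their highest mean in late growth pulp. HSP90AB1, at 154 and 159.6 TPM, and HSP90B1 have theirs in early growth pulp. Late growth was not called against near rest for HSP90AA1, HSPH1 and HSPD1, nor early against late growth for HSP90B1.

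The plot of levels by stage shows HSP90AB1, the Hsp90 that is constitutive in mammals, going against its close relative HSP90AA1. It had 75.4 and 71.1 TPM in late growth pulp, against 154 and 159.6 TPM in early growth pulp. This was a fall of 1.09 ± 0.08 (SE) on the log2 scale (adjusted p = 2.9e-05). Near resting pulp had the lowest levels, at 40.7 and 39.6 TPM, and resting papilla had 72.6, 81.3 and 75.3 TPM. Resting papilla and late growth pulp overlapped, with a log2 fold change of 0.06 ± 0.08 (SE; adjusted p = 0.53) that turned to -0.04 with median-of-ratios scaling. All other pairs of groups were separate. Both genes encode similar proteins, so reads shared between them could affect either level.

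The balance between the Hsp90 genes within each library does not depend on the library total. HSP90AA1 was 2.05 and 2.38 times the level of HSP90AB1 in early growth pulp, 37.5 and 41.6 times in late growth, 52.7 and 68.4 times near rest, and 14.4 to 16.1 times in resting papilla. No 2 groups overlapped. The log2 ratio differed over the 4 groups by an exact permutation test (p = 0.00079, the smallest that 9 libraries in these groups allow, and 0.0012 adjusted over 6 ratio tests). The ratio of the reticulum Hsp70 HSPA5 to the cytosolic HSPA8 was highest in early growth. It was 2.48 and 3.77 in early growth, 0.515 and 0.525 in late growth, 0.331 and 0.466 near rest and 1.23 to 1.25 in resting papilla (exact permutation test, p = 0.00079, adjusted 0.0012). HSP90B1 exceeded HSP90AB1 by 8.84 and 12.3 times in early growth, 18.0 and 20.5 times in late growth, 14.3 and 17.3 times near rest and 6.26 to 7.32 times in resting papilla (exact permutation test, p = 0.004, adjusted 0.0048).

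The endoplasmic reticulum chaperones had smaller fold changes between the growth stages than the cytosolic genes above. HSPA5 had 1104 and 1115 TPM in late growth pulp, against 744 and 655 TPM in early growth pulp, a log2 fold change of 0.67 ± 0.23 (SE, adjusted p = 0.038). This call was lost (adjusted p of 0.055 to 0.16) with no filter, without trend and robust variances, and when any library of early growth pulp, late growth pulp or resting papilla was left out. HSP90B1 had 1353 and 1458 TPM in late growth and 1888 and 1411 TPM in early growth pulp. These ranges overlapped and the difference was not called (log2 fold change of -0.22 ± 0.15 (SE), adjusted p = 0.26). With the second early growth library left out the log2 fold change was -0.43. HSPD1, the Hsp60 chaperonin of mitochondria, had 340.0 and 346 TPM in late growth and 220.3 and 223 TPM in early growth pulp, a log2 fold change of 0.63 ± 0.12 (SE, adjusted p = 0.0035).

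Near resting pulp had lower levels than late growth pulp for 6 of the 9 genes and higher levels for none, against 22.3% lower and 8.77% higher over all genes tested. The split over all genes depends on scaling: 28.2% of called genes were higher with TPM as deposited and 50.3% with median-of-ratios scaling, and the median of all genes moved by 0.16. HSP90B1 fell to 705 and 567 TPM near rest, against 1353 and 1458 TPM in late growth (log2 fold change of -1.15 ± 0.15 (SE), adjusted p = 0.001). HSPA5 was at 786 and 439.6 TPM near rest, against 1104 and 1115 TPM in late growth, a fall of 0.92 ± 0.23 (SE) on the log2 scale (adjusted p = 0.018). BAG3 had 473 and 361 TPM near rest, against 659 and 688 TPM in late growth (-0.70 ± 0.15 (SE), adjusted p = 0.0097). DNAJA1, with 282 and 216 TPM near rest and 384 and 404 TPM in late growth, fell by 0.67 ± 0.13 (SE; adjusted p = 0.0056). HSPA8, with 1687 and 1329 TPM near rest and 2104 and 2164 TPM in late growth, fell by 0.51 ± 0.15 (SE; adjusted p = 0.039). HSP90AB1 also fell, by 0.85 on the log2 scale (adjusted p = 2.9e-04). HSP90AA1 at 2788 and 2087 TPM, HSPH1 at 136 and 61.6 TPM and HSPD1 at 323 and 244 TPM near rest were not called, with adjusted p of 0.17, 0.085 and 0.12.

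The first near resting library was above the second for all 9 genes. The share of all genes that were higher in the first was not counted, so this may not be particular to the chaperones. HSP90AB1, for example, was at 40.7 and 39.6 TPM but ranked 4167th in the first library and 3726th in the second. The first library also had the higher summed level of keratinocyte markers, at 24183 TPM against 9015 TPM in the second. In late growth pulp the 12 keratinocyte markers summed to 579 to 586 TPM. KRT75 and KRT14 were the most abundant of them over all libraries of experiment 2. KRT75 was at 5814 to 9985 TPM near rest but at 10.0 to 10.6 TPM in late growth. The part of the keratinocyte markers in the chaperone values was not tested. Without the first near resting library, a single library was left near rest. The log2 fold changes of HSP90AA1, HSPH1 and HSPD1 against late growth were then -0.47, -1.345 and -0.49. HSP90AA1 was called lower than in late growth with quantile normalization (adjusted p = 0.026). Without the second late growth library, 3 of the 9 genes were called lower, and BAG3 had an adjusted p of 0.057. HSPA5 was not called without the first (0.078) or the second (0.079) late growth library. HSPA8 was not called without any late growth or resting library or the second near resting library, nor with no filter, median-of-ratios scaling or plain variances (adjusted p of 0.057 to 0.14).

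Set against early growth pulp, near resting pulp still had 6 of the 9 genes higher and 2 lower, against 18.7% and 37.3% of all genes tested. Of all called genes 33.4% were higher with TPM as deposited and 51.5% with median-of-ratios scaling, and the median of all genes moved by 0.25. BAG3 was 9.67-fold, HSP90AA1 7.04-fold, HSPA8 6.52-fold and DNAJA1 3.13-fold above early growth, with adjusted p of 2.5e-06, 2.5e-06, 6.1e-06 and 2.8e-05. HSPH1 rose by 1.19 ± 0.30 (SE) on the log2 scale (adjusted p = 0.01, and 0.051 without the first early growth library). HSPD1 rose by 0.34 ± 0.12 (SE, adjusted p = 0.048). That last call was lost without any early growth, late growth or resting library or the first near resting library, and also with no filter or plain variances (adjusted p of 0.061 to 0.14). HSP90AB1 and HSP90B1 fell by 1.94 and 1.37 on the log2 scale (adjusted p of 1.9e-06 and 1.6e-04). HSPA5 overlapped between these stages (-0.25 ± 0.23 (SE), adjusted p = 0.38). Its sign turned with median-of-ratios scaling (0.05) and without the second near resting library (0.17). Without the first near resting library its log2 fold change was -0.67.

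In the resting apical dermal papilla the levels were close among the 3 libraries, with HSP90AA1 at 1173, 1170.5 and 1172 TPM. Relative to late growth pulp, 8 of the 9 genes were lower and none higher, against 25.8% and 32.5% of all genes tested. BAG3 had 80.9, 87.8 and 73.3 TPM at rest, against 659 and 688 TPM in late growth, a fall of 3.05 ± 0.14 (SE) on the log2 scale (adjusted p = 1.7e-06). HSPA8 had 312, 342 and 325 TPM at rest, against 2104 and 2164 TPM in late growth (-2.71 ± 0.14 (SE), adjusted p = 3.3e-06). HSPH1, at 28.8, 26.4 and 29.3 TPM, fell by 2.45 on that scale (adjusted p = 1.5e-04), and the other 5 genes fell by 0.90 (HSPD1) to 1.59 (DNAJA1). HSP90AB1 was the gene not called in this pair.

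Against near resting pulp, the resting papilla had 6 genes lower and 1 higher, where 21.6% and 40.9% of all genes tested were. Of all called genes 65.4% were higher with TPM as deposited and 49.4% with median-of-ratios scaling, and the median of all genes moved by -0.25. The 6 that fell were BAG3, HSPA8, HSPH1, HSP90AA1, DNAJA1 and HSPD1, by 2.35 to 0.61 on the log2 scale, and HSP90AB1 rose by 0.91 ± 0.08 (SE, adjusted p = 3.2e-05). HSPA5 (-0.53, adjusted p = 0.053) and HSP90B1 (-0.29, adjusted p = 0.098) were not called. Both were called with median-of-ratios scaling (adjusted p of 0.0048 and 0.0059). Without the second near resting library their log2 fold changes were -0.95 and -0.45.

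Against early growth pulp, 4 genes were higher and 3 lower in the resting papilla, near the 32.1% and 33.6% over all genes tested. HSP90AA1 rose by 1.76 ± 0.12 (SE, adjusted p = 7.2e-06), BAG3 by 0.89 ± 0.14 (6.3e-04), DNAJA1 by 0.71 ± 0.12 (8.6e-04) and HSPA8 by 0.51 ± 0.14 (0.013) on the log2 scale. HSP90B1, at 532, 509 and 509.6 TPM at rest and 1888 and 1411 TPM in early growth, fell by 1.66 (adjusted p = 2e-05). HSP90AB1 fell by 1.03 (adjusted p = 1.1e-05), and HSPA5, at 390.2, 422 and 405 TPM at rest, fell by 0.78 (0.01). HSPA5 and HSPA8 were not called without the first early growth library (adjusted p of 0.074 and 0.11). HSPH1 and HSPD1 were not called (log2 fold changes of -0.48 and -0.27, adjusted p of 0.16 and 0.067). Their tests use a spread that includes the near resting libraries, which are not part of this pair. HSPD1 was called lower with median-of-ratios scaling (adjusted p = 0.019).

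**Figure D2:**
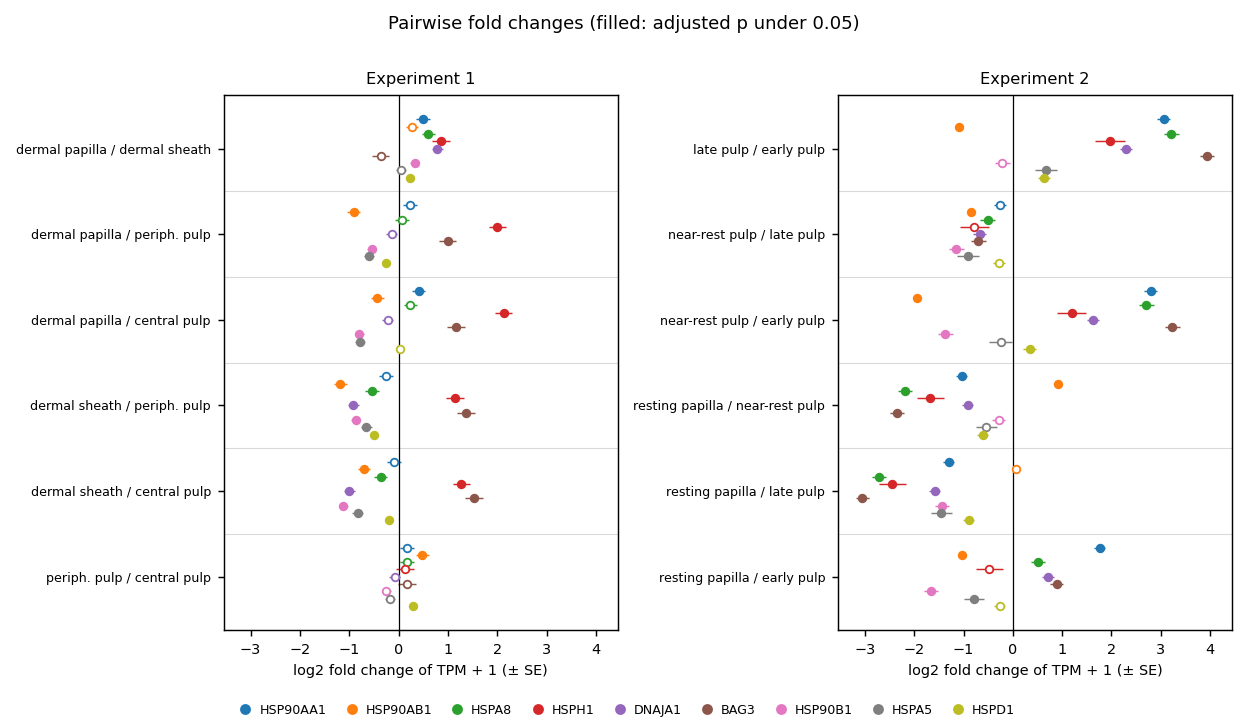
Log2 fold change on the log2(TPM + 1) scale, first-named group over second, with its standard error, of each chaperone gene in the pairwise comparisons of both experiments. Filled points were called at an adjusted p under 0.05 and open points were not. BAG3, HSPA8 and HSP90AA1 reach 3.94, 3.22 and 3.06 in late against early growth pulp, while in experiment 1 the values furthest from 0 are those of HSPH1, at 2.01 and 2.13 in papilla against the pulp parts.

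The order of levels over the 4 groups of experiment 2 therefore differed between genes, as the plot of fold changes shows. The resting group differs from the pulp groups in tissue as well as in stage, so its place in an order cannot be assigned to either. HSPA8, DNAJA1 and BAG3 ran from late growth to near rest to the resting papilla to early growth, with all neighbours called in the main fit. As given above, the first step of BAG3 and the first and last steps of HSPA8 were not called under some other settings. HSP90AA1 kept that order, with late growth and near rest not separated by the test. For HSPH1 and HSPD1 early growth stood above the resting papilla. Neither the upper nor the lower pair of neighbours was called, although their libraries did not overlap. HSP90B1 ran from early growth to late growth to near rest to rest, and its middle step alone was called. HSPA5 ran from late growth to early growth to near rest to rest, and its first step alone was called, a call lost under several other settings.

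Other groups of values moved with these stages. Immediate-early genes (14 of the 18 listed had a row, led by FOS and JUND) summed to 387 to 433 TPM in early growth pulp, 3720 to 3835 TPM in late growth, 1146 to 1293 TPM near rest and 7759 to 9792 TPM in resting papilla. JUN was listed at 0 in every library of this experiment. Cell cycle genes summed to 1075 to 1313 TPM in early growth, 304 to 312 TPM in late growth, 254 to 305 TPM near rest and 225 to 242 TPM at rest. Endothelial markers, led by TEK and VWF, summed to 806 to 835 TPM in late growth and to 353 to 458 TPM in the other groups. TEK by itself overlapped between late growth, at 159 to 162 TPM, and resting papilla, at 137 to 159 TPM. Smooth muscle markers, led by ACTA2 and MYLK, summed to 723 to 733 TPM in late growth and to 219 to 297 TPM elsewhere. MYLK by itself was higher near rest, at 93.1 to 109 TPM, than in late growth, at 79.6 to 83.0 TPM. Mesenchyme markers, led by COL1A2 and COL1A1, summed to 25913 to 26349 TPM in early and 39489 to 40261 TPM in late growth. They summed to 24941 to 31535 TPM near rest and 15749 to 17080 TPM at rest. Of the 11 tested, 4 rose and 3 fell in late against early growth, against 22.4% and 30.8% of all genes tested. Keratinocyte markers summed to 1270 to 1576 TPM in early growth and to 303 to 445 TPM at rest, and erythroid markers reached 2723 to 5464 TPM at rest. The part of these in the chaperone values was not tested.

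Other genes of the folding machinery were described from 7 lists. Of 19 cytosolic co-chaperone genes tested, 7 rose and 4 fell in late against early growth pulp, against 22.4% and 30.8% of all genes tested, with a median log2 fold change of 0.21 against -0.11 for all genes. The J-proteins DNAJA4 and DNAJB1, which act on Hsp70, moved most. DNAJA4 had 435 to 465 TPM in late growth, against 31.5 to 34.9 TPM in early growth pulp (log2 fold change of 3.72 ± 0.11 (SE), adjusted p = 4.9e-07). DNAJB1 had 379 to 405 TPM, against 44.5 to 56.8 TPM (2.94 ± 0.15 (SE), adjusted p = 4.8e-06). PPID, a cyclophilin that binds Hsp90, and BAG1, an exchange factor of Hsp70, went the other way by -0.52 and -1.55 (adjusted p of 0.0016 and 1.1e-04). Of 6 small heat-shock proteins tested, 3 rose and 2 fell in the same pair, against 22.4% and 30.8% of all genes tested. Their median log2 fold change was 0.31 against -0.11 for all genes. HSPB8, the partner of BAG3, had 218 to 222 TPM in late growth and 19.5 to 22.2 TPM in early growth (3.34 ± 0.11 (SE), adjusted p = 6.1e-07). HSPB1 had 84.4 to 109 TPM in late growth and 31.0 to 35.6 TPM in early growth, and was highest at rest, at 173 to 189 TPM.

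Of 4 heat-shock factor genes tested, none was called higher in late against early growth pulp and 1, HSF2, was called lower, which is near the 30.8% called lower over all genes tested. The count was 0 with median-of-ratios scaling and without either early growth library or the first late growth library, and 2 without the second resting library. HSF1, the main heat-inducible factor of mammals, had 21.9 to 27.9 TPM in late growth and 24.4 to 26.5 TPM in early growth pulp (log2 fold change of -0.04 ± 0.14 (SE), adjusted p = 0.84). HSF2 was lower in late growth, at 40.4 to 51.1 TPM, than in early growth, at 59.2 to 61.4 TPM (-0.40 ± 0.11 (SE), adjusted p = 0.018). HSF3, a heat-shock factor known from birds, had 29.2 to 29.7 TPM in late growth and 16.2 to 19.9 TPM in early growth (0.68 ± 0.44 (SE), adjusted p = 0.23). At rest HSF3 ranged from 43.6 to 123 TPM. RNA levels say nothing of the activity of these factors. HSPE1, the co-chaperonin that caps HSPD1, differed from its partner: it had 137 to 142 TPM in late growth, against 219 to 247 TPM in early growth, and fell by 0.73 ± 0.13 (SE) on the log2 scale (adjusted p = 0.0018).

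Of 23 further chaperones and folding enzymes of the endoplasmic reticulum tested, 5 rose and 6 fell in late against early growth pulp, near the 22.4% and 30.8% of all genes tested, with a median log2 fold change of -0.07 against -0.11 for all genes. Near rest, 17 of the 23 were lower than in late growth and none higher, where 22.3% of all genes tested were lower and 8.77% higher, with a median log2 fold change of -0.57 against -0.16 for all genes. That count was 11 without the first and 11 without the second late growth library. In the resting papilla 17 were lower than in late growth and none higher, against 25.8% and 32.5% of all genes tested. There 16 were lower than in early growth and 1 higher, against 33.6% and 32.1%. CALR, the lectin chaperone calreticulin, had 1072 to 1203 TPM near rest, against 2495 to 2565 TPM in late growth (-1.15 ± 0.10 (SE), adjusted p = 2.1e-04). SERPINH1, the collagen chaperone Hsp47, had 1732 to 1825 TPM near rest, against 3174 to 3217 TPM in late growth (-0.85 ± 0.10 (SE), adjusted p = 6.1e-04). PDIA6, a disulfide isomerase, had 812 to 950 TPM in early growth, 560 to 571 TPM in late growth, 305 to 352 TPM near rest and 243 to 245 TPM at rest.

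Among 14 genes of unfolded protein response signalling, 5 rose and 3 fell in late against early growth pulp, against 22.4% and 30.8% of all genes tested. The number called was higher when either near resting library was left out. HERPUD1, a target of this response, had 112 to 159 TPM in late growth, against 19.9 to 21.9 TPM in early growth pulp (2.62 ± 0.25 (SE), adjusted p = 9.1e-05). ERN1, which encodes the sensor IRE1, had 37.6 to 38.0 TPM in late growth and 22.3 to 22.5 TPM in early growth (0.73 ± 0.09 (SE), adjusted p = 2.5e-04). ASNS, a target of ATF4, went the other way, with 30.7 to 33.0 TPM in late growth and 57.6 to 61.4 TPM in early growth (-0.88 ± 0.16 (SE), adjusted p = 0.0021).

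**Figure D3:**
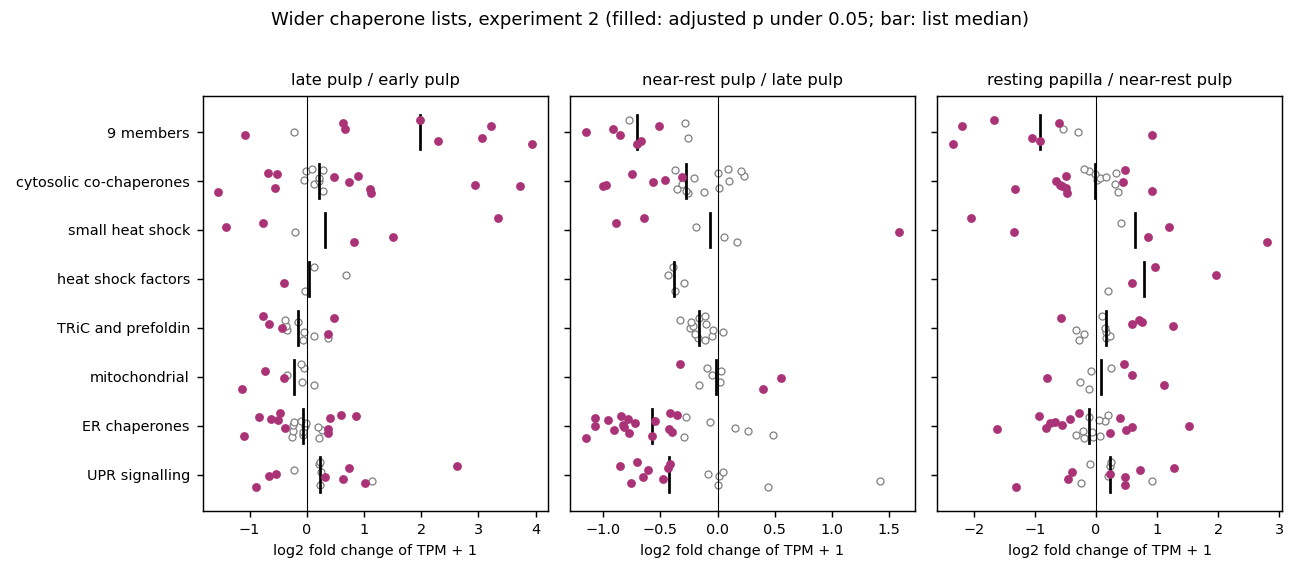
Log2 fold change on the log2(TPM + 1) scale, first-named group over second, of each gene of the 9 chaperone genes and of the wider lists in 3 comparisons of experiment 2, with a vertical bar at each list's median. Filled points were called at an adjusted p under 0.05 and open points were not. In near resting against late growth pulp 17 of 23 endoplasmic reticulum genes were lower and none higher.

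Experiment 1 compared the parts of the follicle during early growth, where the differences were smaller. HSPH1 varied most. It had 236, 251 and 215 TPM in papilla, 97.7, 181 and 121 TPM in the sheath, 62.0, 57.9 and 52.8 TPM in peripheral pulp and 50.0, 48.7 and 59.7 TPM in central pulp. The papilla was above the sheath, the sheath above both pulp parts, and the pulp parts overlapped. Its log2 fold change was 2.01 ± 0.18 (SE, adjusted p = 2.2e-06) in papilla against peripheral pulp, 2.13 ± 0.18 (1.4e-06) against central pulp and 0.86 ± 0.18 (0.0031) against the sheath. BAG3 was likewise higher outside the pulp, at 169.7, 154 and 158 TPM in the papilla with 168, 265 and 199 TPM in the sheath, against 90.5, 87.4 and 64.3 TPM in peripheral pulp and 81.5, 59.0 and 74.7 TPM in central pulp. Papilla and sheath overlapped (-0.37 ± 0.18 (SE), adjusted p = 0.13, and 0.049 without the first sheath library). In papilla against peripheral and central pulp BAG3 rose by 1.00 and 1.16 on the log2 scale (adjusted p of 5e-04 and 1.7e-04). Immediate-early genes (13 of the 18 listed had a row) were also higher outside the pulp in their sum. They summed to 1357 to 1583 TPM in the papilla and 1672 to 1803 TPM in the sheath. In peripheral and central pulp they summed to 729 to 997 TPM and 702 to 1355 TPM. JUND and IER5 were the most abundant, and IER5 did not follow the sum. IER5 had 165 to 171 TPM in the papilla and 102 to 121 TPM in the sheath, against 154 to 218 TPM in peripheral and 187 to 245 TPM in central pulp. Of the 13 immediate-early genes tested, 8 rose and 1 fell in papilla against peripheral pulp, and 10 rose and 1 fell in sheath against it. Of all genes tested 21.7% rose and 35.6% fell in the first of these pairs, and 20.2% and 39.1% in the second. Their part in the values of HSPH1 and BAG3 was not tested.

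**Figure D4:**
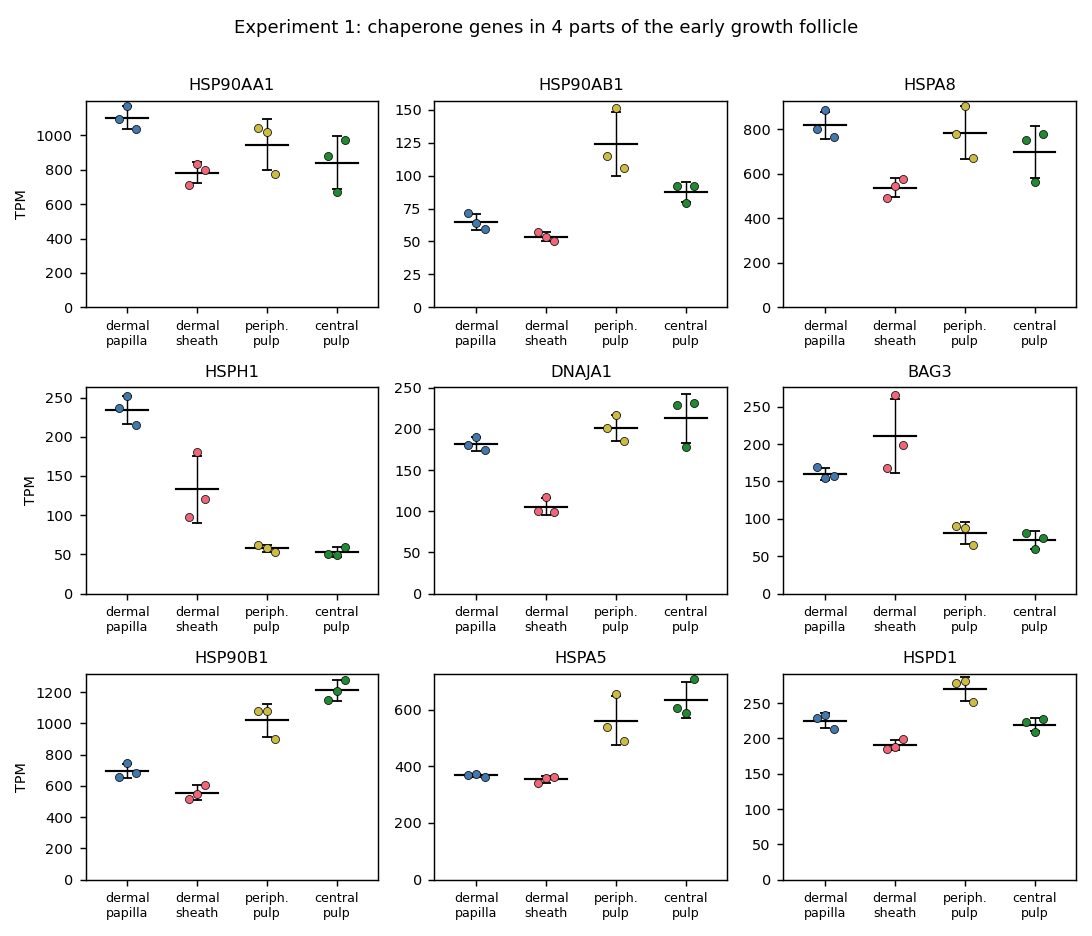
TPM of the 9 chaperone genes in each library of experiment 1 (papilla, sheath and the peripheral and central pulp, 3 libraries each). Points are libraries, and lines with bars are means with their SD. HSPH1 and BAG3 are higher in papilla and sheath, and HSP90B1 and HSPA5 are higher in the pulp parts.

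The endoplasmic reticulum genes lay the other way round, as the plot of levels by follicle part shows. HSP90B1 had 658, 747 and 684 TPM in the papilla, 514, 551 and 606 TPM in the sheath, 1078, 1082 and 899 TPM in peripheral pulp and 1148, 1209 and 1279.7 TPM in central pulp. The papilla was below the peripheral pulp by 0.55 ± 0.09 (SE) and below the central pulp by 0.80 ± 0.09 (SE) on the log2 scale (adjusted p of 2.9e-04 and 1.5e-05), and above the sheath by 0.32 ± 0.09 (0.015). HSPA5 had 369, 371 and 363 TPM in the papilla, against 340.4, 359 and 363 TPM in the sheath. In peripheral pulp it had 539, 655 and 489 TPM and in central pulp 606, 587 and 708 TPM. Papilla and sheath overlapped (0.05 ± 0.10 (SE), adjusted p = 0.72), with a sign that turned under median-of-ratios scaling (-0.01) and quantile normalization (-0.05). In papilla against peripheral and central pulp HSPA5 fell by 0.60 and 0.78 (adjusted p of 3.6e-04 and 4.9e-05). Of the 23 other reticulum genes, 13 were lower and none higher in papilla against each pulp part, where 35.6% of all genes tested were lower than in peripheral and 29.2% lower than in central pulp. In sheath against peripheral and central pulp 14 and 15 were lower and 2 higher, where 39.1% and 33.6% of all genes tested were lower. PDIA6 was at 304 to 320 TPM in the papilla and 246 to 274 TPM in the sheath, against 712 to 883 TPM in peripheral and 801 to 978 TPM in central pulp.

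HSP90AB1 was also lower outside the pulp. It had 71.4, 64.2 and 59.2 TPM in the papilla with 56.9, 53.4 and 50.4 TPM in the sheath, against 115, 151 and 106 TPM in peripheral and 92.4, 78.9 and 91.8 TPM in central pulp. Papilla and sheath were each below peripheral pulp, by 0.91 ± 0.13 and 1.18 ± 0.13 (SE) on the log2 scale (adjusted p of 7.6e-05 and 8.9e-06). HSP90AA1 spanned less, with 1094, 1172 and 1039 TPM in the papilla, 714, 836 and 798 TPM in the sheath, 1040.3, 1019 and 776 TPM in peripheral pulp and 882, 672 and 970.5 TPM in central pulp. It rose in papilla against sheath by 0.49 ± 0.14 (SE, adjusted p = 0.017) and against central pulp by 0.40 ± 0.14 (0.031). The call against central pulp was lost with quantile normalization and without the first or second papilla library or the second central pulp library (adjusted p of 0.065 to 0.13).

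Within libraries, HSP90AA1 was 17.0 ± 1.52 times HSP90AB1 in the papilla, 14.7 ± 1.85 times in the sheath, 7.70 ± 1.19 times in peripheral pulp and 9.54 ± 1.03 times in central pulp (SD, n = 3 each; exact permutation test, p = 6.5e-04, adjusted 0.0012). HSPA5 was 0.452 ± 0.029 times HSPA8 in the papilla, 0.661 ± 0.032 times in the sheath, 0.715 ± 0.021 times in peripheral pulp and 0.920 ± 0.121 times in central pulp (SD, n = 3 each; exact permutation test, p = 1.3e-04, adjusted 7.8e-04). HSP90B1 to HSP90AB1 was 10.8 ± 1.37 in the papilla, 10.5 ± 1.5 in the sheath, 8.34 ± 1.11 in peripheral pulp and 13.9 ± 1.45 in central pulp (SD, n = 3 each; exact permutation test, p = 0.009, adjusted 0.009).

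**Figure D5:**
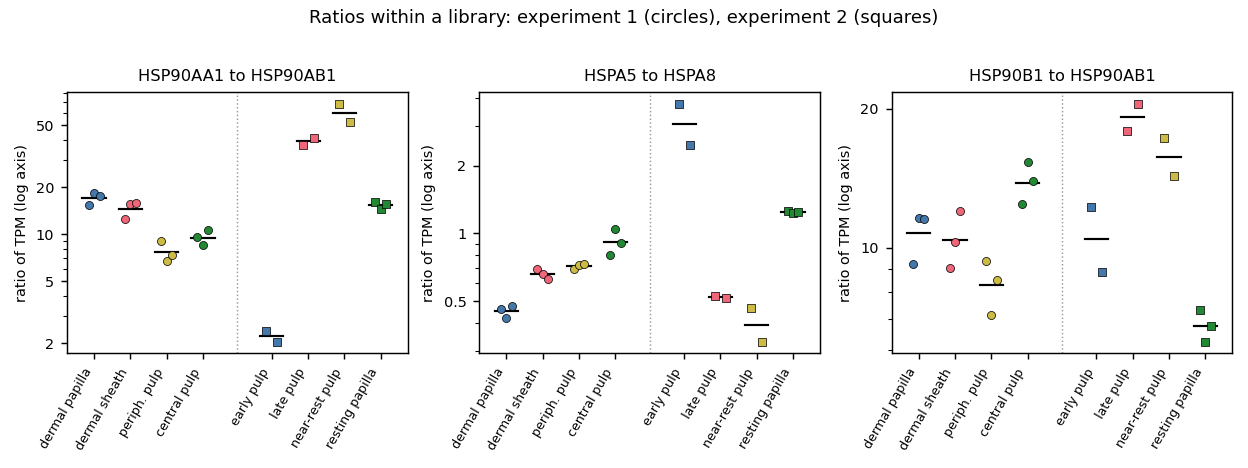
TPM of HSP90AA1 over HSP90AB1, HSPA5 over HSPA8 and HSP90B1 over HSP90AB1 within each library, on log axes. Circles are the follicle parts of experiment 1 and squares the stages of experiment 2, with group means as lines. The ratio of HSP90AA1 to HSP90AB1 lies between 2.05 and 68.4 across the stages and between 6.73 and 18.2 across the follicle parts.

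The plot of ratios sets the follicle parts beside the stages, and its HSP90AA1 panel shows the wider spread across the cycle. The Hsp70 pair HSPA8 and DNAJA1 had its lowest group mean in the sheath, as did HSP90AA1, HSP90AB1, HSP90B1, HSPA5 and HSPD1. HSPA8 had 803, 885 and 764 TPM in the papilla, against 491, 545 and 577 TPM in the sheath, a log2 fold change of 0.60 ± 0.14 (SE, adjusted p = 0.0046). It had 779.6, 905 and 669.6 TPM in peripheral and 752, 562 and 780.1 TPM in central pulp, where it overlapped with the papilla. DNAJA1 had 180.1, 190.4 and 175 TPM in the papilla, 100.4, 117 and 98.8 TPM in the sheath, 201, 216 and 185 TPM in peripheral pulp and 229, 178 and 231 TPM in central pulp. All sheath libraries were below all others for DNAJA1, and papilla against sheath gave 0.78 ± 0.11 (SE, adjusted p = 2.3e-04). HSPD1 had 229, 233 and 213 TPM in the papilla, 185, 188 and 199 TPM in the sheath, 278, 281 and 251 TPM in peripheral pulp and 223, 209 and 227 TPM in central pulp. Peripheral pulp was above central pulp for HSPD1 by 0.30 ± 0.07 (SE, adjusted p = 0.009), a call lost with median-of-ratios scaling (0.19, adjusted p = 0.08).

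In counts, papilla against sheath had 6 of the 9 genes higher and none lower, where 21.7% and 16% of all genes tested were. These were DNAJA1, HSPA8, HSPH1, HSP90AA1, HSP90B1 and HSPD1. Over all genes tested, 4242 to 5592 were called in this pair with a library left out. Without the second papilla library 3 of the 9 chaperone genes were called. HSP90AA1 and HSP90B1 were then at an adjusted p of 0.06 and 0.064, and without the first sheath library at 0.064 and 0.062. HSPD1 was not called without the first or second papilla or the first or second sheath library, nor with median-of-ratios scaling or quantile normalization (adjusted p of 0.053 to 0.16). HSP90AB1 was called higher in the papilla without the second peripheral pulp library (0.045). The sheath had the higher summed keratinocyte markers, at 6552 to 9951 TPM against 267 to 476 TPM in the papilla, and erythroid markers, at 3645 to 4137 TPM against 1045 to 1274 TPM. Their part was not tested.

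Papilla against peripheral pulp had 2 higher and 4 lower, against 21.7% and 35.6% of all genes, and papilla against central pulp had 3 higher and 3 lower, against 23.7% and 29.2%. HSP90AB1 was below central pulp by 0.43 (adjusted p = 0.014, and 0.057 without the third papilla library), and HSPD1 below peripheral pulp by 0.26 (0.007, and 0.21 with median-of-ratios scaling). Median-of-ratios scaling gave HSP90AA1 a call above peripheral pulp (adjusted p = 0.043), and DNAJA1 was called below central pulp without the second central pulp library (0.013) and with quantile normalization (0.025). Sheath against peripheral and central pulp had 2 higher and 6 lower each, against 20.2% and 39.1%, and 22.9% and 33.6%, of all genes. The 2 higher genes were HSPH1 and BAG3. In the sheath, HSPA8 and HSPD1 fell against central pulp by 0.36 and 0.20 (adjusted p of 0.038 and 0.026). Against central pulp, HSPA8 was not called without the first papilla library, the first or second sheath library or the first or the third central pulp library (adjusted p of 0.05 to 0.14). HSPD1 was not called without the first or second sheath or the first or the third central pulp library (0.066 to 0.09). HSP90AA1 was called lower in sheath against peripheral pulp without the third peripheral pulp library (-0.40, adjusted p = 0.027) and with quantile normalization (0.012), and HSPA8 was not called there with median-of-ratios scaling (0.063).

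Of all called genes in papilla against peripheral pulp, 37.8% were higher with TPM as deposited and 49% with median-of-ratios scaling, and the median of all genes moved by 0.14. In sheath against peripheral pulp these shares were 34.1% and 49.4%, and the median moved by 0.20. Peripheral against central pulp had 2 genes higher (HSP90AB1 and HSPD1) and none lower, against 15.6% and 9.51% of all genes. There the share of called genes that were higher was 62.2% with TPM as deposited and 43% with median-of-ratios scaling, with which 1 of the 2 was no longer called higher and HSP90B1 was called lower (adjusted p = 0.017). HSP90AB1 was not called without the second peripheral pulp library (adjusted p = 0.052) or the second central pulp library (0.068), and HSPA5 was called lower without the second peripheral pulp library (0.037).

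Small heat-shock proteins also differed between the parts, with 6 of 6 tested higher in sheath against peripheral pulp and 5 of 6 in papilla against it, where 20.2% and 21.7% of all genes tested were higher. Both counts include HSPB3, and the sheath count also HSPB2, which did not exceed 3.87 and 5.05 TPM in any library. HSPB1, which binds unfolding proteins without ATP, had 767 to 977 TPM in the papilla and 983 to 1208 TPM in the sheath, against 17.8 to 32.3 TPM in peripheral and 39.8 to 63.5 TPM in central pulp. HSPB8 had 138 to 173 TPM in the papilla and 165 to 206 TPM in the sheath, against 11.4 to 20.2 TPM in peripheral and 11.7 to 24.2 TPM in central pulp. Smooth muscle markers, led by TAGLN and DES, ran with them, summing to 27880 to 30179 TPM in the papilla and 14437 to 18650 TPM in the sheath, against 192 to 303 TPM in peripheral and 895 to 1290 TPM in central pulp. Leukocyte markers, led by LY86 and LAPTM5, ran against them, at 241 to 275 TPM in the papilla and 409 to 436 TPM in the sheath, against 1241 to 1481 TPM and 1750.2 to 2107 TPM in peripheral and central pulp. Their part in these values, or in those of HSPH1 and BAG3, was not tested.

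Peripheral and central pulp differed in the chaperonins. Of 13 genes of TRiC, the cytosolic chaperonin, and of prefoldin, which hands it clients, 10 were higher in peripheral pulp and none lower, against 15.6% and 9.51% of all genes tested. The count was 6 with median-of-ratios scaling, without the second peripheral pulp library and without the second central pulp library. CCT7 had 244 to 259 TPM in peripheral pulp, against 172 to 191 TPM in central pulp (0.46 ± 0.06 (SE), adjusted p = 3.3e-04). Of 8 other mitochondrial chaperone genes, 6 were higher and none lower, against the same shares of all genes, and 3 were called with median-of-ratios scaling. HSPA9, the mitochondrial Hsp70, had 155 to 170 TPM in peripheral and 125 to 130 TPM in central pulp (0.35 ± 0.07 (SE), adjusted p = 0.0033). Cell cycle genes summed to 1226 to 1306 TPM in peripheral and 809 to 880 TPM in central pulp, and their part was not tested.

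Genes whose levels followed a chaperone gene most closely were found by Pearson's correlation of log2(TPM + 1) over the libraries of an experiment, which share 4 groups, so that many genes with the same group order reach high values. Over the 9 libraries of experiment 2, HSPA8 and BAG3 correlated at 0.996. HSPB8 was among the 3 nearest genes outside the list for both (0.991 and 0.995). CHORDC1, a co-chaperone of Hsp90, was among the 3 nearest genes to HSPH1 (0.981) and to HSPD1 (0.991), and the TRiC subunit TCP1 was also near HSPD1 (0.985). DNAJC3, a J-protein of the endoplasmic reticulum, was nearest to HSP90B1 (0.992). Over the 12 libraries of experiment 1, HSPA8 was nearest to JMJD6 (0.963) and HSPA4L (0.943), an Hsp110, and HSPD1 to HIKESHI (0.972), the import carrier of Hsp70. HSPA5 and HSP90B1 correlated at 0.956 there and at 0.812 in experiment 2.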

How the data were processed

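RNA-seq of 21 libraries was used, 12 in experiment 1 and 9 in experiment 2, grouped by the labels. Per the labels, total RNA was extracted with TRIzol and libraries were made with a TruSeq RNA kit. The authors deposited 1 table per experiment in TPM. The submitters' processing notes name Cuffdiff 2.2.1.3, Cufflinks 2.2.1.2 and TopHat2 2.1.1 without saying what each did. The sources used here do not give the genome build or annotation. TPM keeps no depth, so precision at low levels is unknown, and a rise in abundant genes lowers all others. The tables (13815 and 23789 rows) were normalized separately, so each test stays within 1 table. Experiment 1's table held no gene with a mean under 1.001 TPM.

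With limma 3.58.1 in R 4.3.3, group-means models were fitted to log2(TPM + 1) over all libraries of an experiment, with trend and robust variances, 8 and 5 residual degrees of freedom, and Benjamini-Hochberg adjustment. Genes needed 1 TPM in at least 3 (experiment 1) or 2 (experiment 2) libraries, leaving 13804 and 14915. Ratios within libraries were compared by two-sided exact permutation tests of the F ratio over all assignments of libraries to the 4 groups. The step was tested on simulated data. No replicate pair was near-identical (SD of the log2 difference 0.322 to 0.643).

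The genes and lists were chosen with earlier results of these data known. From the wider lists, up to 4 genes with the smallest p of the test over 4 groups in each experiment were eligible for naming, and for each chaperone gene the 3 most correlated genes with a symbol and a mean of at least 10 TPM. Not every eligible gene is reported here. Alternatives were a pseudocount of 0.1, no filter, median-of-ratios scaling, quantile normalization, plain variances (no trend or robust setting), the replicate number as a block, and leaving out each library.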

Additional observations from a re-analysis of the deposited data

How the results depend on the processing

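Of 648 fold changes of the chaperone genes recomputed under planned settings other than leaving out a library, 609 kept direction and call, and of 1134 with a library left out, 1063 did. Direction turned in values that were not called: HSPA5 in papilla against sheath (-0.011 with median-of-ratios scaling, -0.047 with quantile normalization), DNAJA1 in papilla against peripheral pulp (0.005 with median-of-ratios scaling), HSPA8 there (-0.098 with quantile normalization, and -0.042 to 0.175 with a library left out, negative without the third peripheral pulp library), HSPD1 in papilla against central pulp (-0.071 with quantile normalization), HSP90AA1 in sheath against central pulp (0.018 with median-of-ratios scaling, and -0.244 to 0.021 with a library left out, positive without the third central pulp library), HSPA5 in near resting against early growth pulp (0.048 with median-of-ratios scaling, and -0.666 to 0.170 with a library left out, positive without the second near resting library) and HSP90AB1 in resting papilla against late growth pulp (-0.043 with median-of-ratios scaling). The cause was not tested. Genes called in peripheral against central pulp numbered 1 in place of 2 with median-of-ratios scaling. With libraries left out, called chaperone genes ranged from 3 to 7 in papilla against sheath, from 1 to 2 in peripheral against central pulp and from 3 to 9 in near resting against late growth pulp, where all called genes ranged from 2864 to 5618. All 69 recomputed ratio results kept their side of the threshold. As TPM keeps no depth, what depth limits is unknown.

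Replicate numbers were not shown to pair the samples: same-numbered libraries of different groups correlated, after removing group means, at -0.085 to 0.143 in experiment 1 and at -0.04 to 0.113 in experiment 2. With the replicate number as a block, 8 of the 9 genes were called over the 4 groups of experiment 1 and 9 in experiment 2. Without the block, 76.3% and 85% of all genes tested were called, so these counts say little about the chaperones. The block moved called chaperone genes to 5 in papilla against central pulp, 7 in sheath against central pulp, 7 in late against early growth pulp, 5 in near resting against late growth pulp and 7 in near resting against early growth pulp. Calls over all genes tested also fell with the block in these 3 pairs of stages. Late against early growth pulp had 2898 genes higher and 3973 lower with it, against 3347 and 4599 without it. Near resting against late growth pulp had 1012 and 2332, against 1308 and 3333. Near resting against early growth pulp had 2436 and 4969, against 2785 and 5558. Papilla against central pulp had 3294 and 4079, against 3272 and 4037. Sheath against central pulp had 3204 and 4692, against 3159 and 4643.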

Other observations

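Early growth pulp appears in both experiments, as whole pulp in experiment 2 and as peripheral and central pulp in experiment 1. The tables were normalized separately, so the levels are set side by side without a test. HSP90AA1 was at 326 to 366 TPM in the 2 whole pulp libraries of experiment 2, against 672 to 1040.3 TPM in the 6 pulp libraries of experiment 1. HSPA8 was at 198 to 265 TPM, against 562 to 905 TPM, and DNAJA1 at 74.7 to 84.2 TPM, against 178 to 231 TPM. BAG3 was at 39.3 to 46.9 TPM, against 59.0 to 90.5 TPM, and HSPH1 at 38.5 to 40.7 TPM, against 48.7 to 62.0 TPM. For these 5 genes the whole pulp of experiment 2 lay below every pulp library of experiment 1. HSP90AB1, at 154 to 159.6 TPM against 78.9 to 151 TPM, and HSP90B1, at 1411 to 1888 TPM against 899 to 1279.7 TPM, lay above. HSPA5 and HSPD1 overlapped. The share of all genes that lie apart in this way was not counted, so whether the chaperone genes stand out is unknown. The fold changes against early growth pulp given above for experiment 2 rest on its 2 whole pulp libraries. The labels do not say whether both experiments used the same birds or the same handling.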
